A study of Mus musculus with 9 samples.

Results

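The mitosis and spindle genes are 35 listed genes of G2 and M phase, chosen by name and not by any measured value, out of 50686 genes in the count tables. RNA-seq libraries were made from BCR/ABLp185+ cell lines, which grew from C57BL/6N mouse bone marrow after transformation by BCR/ABL, the fusion tyrosine kinase of Philadelphia chromosome-positive leukemia. The study compared a wt line, a Stat5a-/- line and a Stat5b-/- line, so every line carries BCR/ABLp185 and the lines differ by design in the deleted STAT5 gene. The paper also reported higher BCR/ABL levels in knockout lines and a later outgrowth of Stat5b-/- lines. Such traits of a line cannot be told apart from its genotype here. There was 1 line of each genotype with 3 technical replicates, so that 9 libraries were analysed and every test below compares 3 lines and not independent lines of a genotype. The free-text description deposited for the knockout samples names wt, unlike their titles and genotype fields, which were followed here.

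Cells enter mitosis when the kinase Cdk1, bound to cyclins A and B, is activated. Kinesin motors and Aurora and Polo kinases then build a bipolar spindle, kinetochores attach each chromosome to it, and the spindle checkpoint holds back the anaphase-promoting complex (APC/C) until attachment is complete. The chromosomal passenger complex corrects attachments and, with midzone kinesins and anillin, directs the final division of the cell. The genes of these proteins are repressed in quiescent and G1 cells by the DREAM complex and activated in G2 by B-MYB and FOXM1, and their transcripts are commonly read as a sign of proliferation.

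Library totals lay between 11948136 and 19016396 reads, and 13852 genes passed the filter on low counts. All 35 members passed it, with 307 to 32870 reads for a member in a library. Stat5a had a mean of 43.1, 12.4 and 83.6 and Stat5b one of 105, 142 and 63.4 normalized CPM (read counts scaled to a common library size with TMM factors) in wt, Stat5a-/- and Stat5b-/- libraries, so each deleted gene was lowest in the line labelled with its knockout while reads on it remained. Of 10 B lineage markers none was at 0 in a library, and their sums were 4715 to 5019 normalized CPM in wt, 6549 to 7268 in Stat5a-/- and 5781 to 6626 in the Stat5b-/- libraries. At an adjusted p under 0.05 in the edgeR test used below, 7 of these markers (70%) were higher and 1 (10%) lower in Stat5a-/- than in wt. Over all tested genes these shares were 19.8% and 16.3%. In Stat5b-/- against wt 6 (60%) were higher and 2 (20%) lower, beside 24.2% and 22.0% of all tested genes. Rag1, which encodes a subunit of the recombinase that joins antigen receptor gene segments and was singled out after its values were seen, had 63.3 to 67.0 normalized CPM in wt but 0.0900 to 0.244 in Stat5a-/- and 0.479 to 0.837 in the Stat5b-/- libraries, so this marker was close to absent from both knockout lines. None of the 16 T lineage markers was at 0 in any library, and their sums were 727 to 968, 1326 to 1521 and 1665 to 2328 normalized CPM in the same order. Of 10 myeloid markers 3 or 4 were at 0 in a library, and the sums were 17.4 to 18.7 in wt, 13.6 to 15.2 in Stat5a-/- and 19.5 to 22.2 normalized CPM in Stat5b-/- libraries. The 8 erythroid markers summed to 11.8 to 14.1, 12.4 to 14.9 and 3.29 to 4.03 normalized CPM in that order. The T lineage and myeloid sums did not overlap between the 3 lines, the B lineage sums separated wt from both knockout lines and the erythroid sums separated Stat5b-/- from the others, so that they move with comparisons of the members below. The part of these other transcripts in the members' values was not tested.

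The members were expressed in every library at levels that spanned 63.3-fold per kb of gene model in wt. Ube2c, the ubiquitin-conjugating enzyme of the APC/C, was highest at 327 normalized CPM per kb in wt, followed by Ccnb2 at 211, Mki67 at 121 and Ccna2 at 113, and Nuf2 at 6.45 and Cenpf at 5.16 were lowest. Ube2c was highest in both knockout lines as well, at 326 in Stat5a-/- and 249 in the Stat5b-/- libraries. Summed over the 35 members, the wt libraries had 7581 ± 293 normalized CPM (SD, n = 3), the Stat5a-/- libraries 8403 ± 414 and the Stat5b-/- libraries 8813 ± 1063. The Stat5b-/- libraries held 7585, 9424 and 9430, so that replicate 1 stood apart and lay among the wt libraries, which held 7243, 7764 and 7737. Mki67 had the largest part in these sums, with means of 1217.5 in wt, 1690 in Stat5a-/- and 1984 normalized CPM in Stat5b-/- libraries. A difference between the sums therefore leans on this gene and need not hold for the other members. In a bulk sample, a different share of cells in G2 and M phase and a different amount of RNA of these genes per cell cannot be told apart.

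Against wt, 8 members were higher and 2 lower in Stat5b-/-, and 7 were higher and 2 lower in Stat5a-/-, at an adjusted p under 0.05 in the quasi-likelihood test of edgeR, adjusted by Benjamini-Hochberg over all tested genes. Over all 13852 tested genes, 24.2% were higher and 22.0% lower in Stat5b-/- against wt, and 19.8% were higher and 16.3% lower in Stat5a-/- against wt. Among the members these shares were 22.9% and 5.71% in Stat5b-/- and 20.0% and 5.71% in Stat5a-/-, so the share of higher members was near that of all genes and the share of lower members was below it. Between the knockout lines, 4 members were higher and 4 lower in Stat5b-/-, or 11.4% each, where 16.4% of all genes were higher and 17.5% lower. No member passed a 2-fold change besides the adjusted p in any comparison, whereas 19.1% of all genes did so in Stat5b-/- against wt, 14.2% in Stat5a-/- against wt and 11.4% between the knockout lines. The median log2 fold change of the members was 0.10 in Stat5b-/- and 0.03 in Stat5a-/- against wt and 0.11 between the knockout lines, beside medians of 0.02, 0.01 and 0.02 over all genes. Both knockout comparisons use the same wt libraries, so their values are given side by side. Leaving out 1 library moved the number of called members in Stat5a-/- against wt from 9 to 4 without wt replicate 1, wt replicate 3 or Stat5a-/- replicate 1 and to 5 without Stat5a-/- replicate 2, and between the knockout lines from 8 to 5 without Stat5a-/- replicate 3 or Stat5b-/- replicate 3 and to 4 without Stat5b-/- replicate 2. With library totals as the only scaling, the median of all genes moved to -0.13 in Stat5a-/- against wt and 0.13 between the knockout lines, and the members split into 2 higher and 4 lower and into 8 higher and 1 lower.

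**Figure D1:**
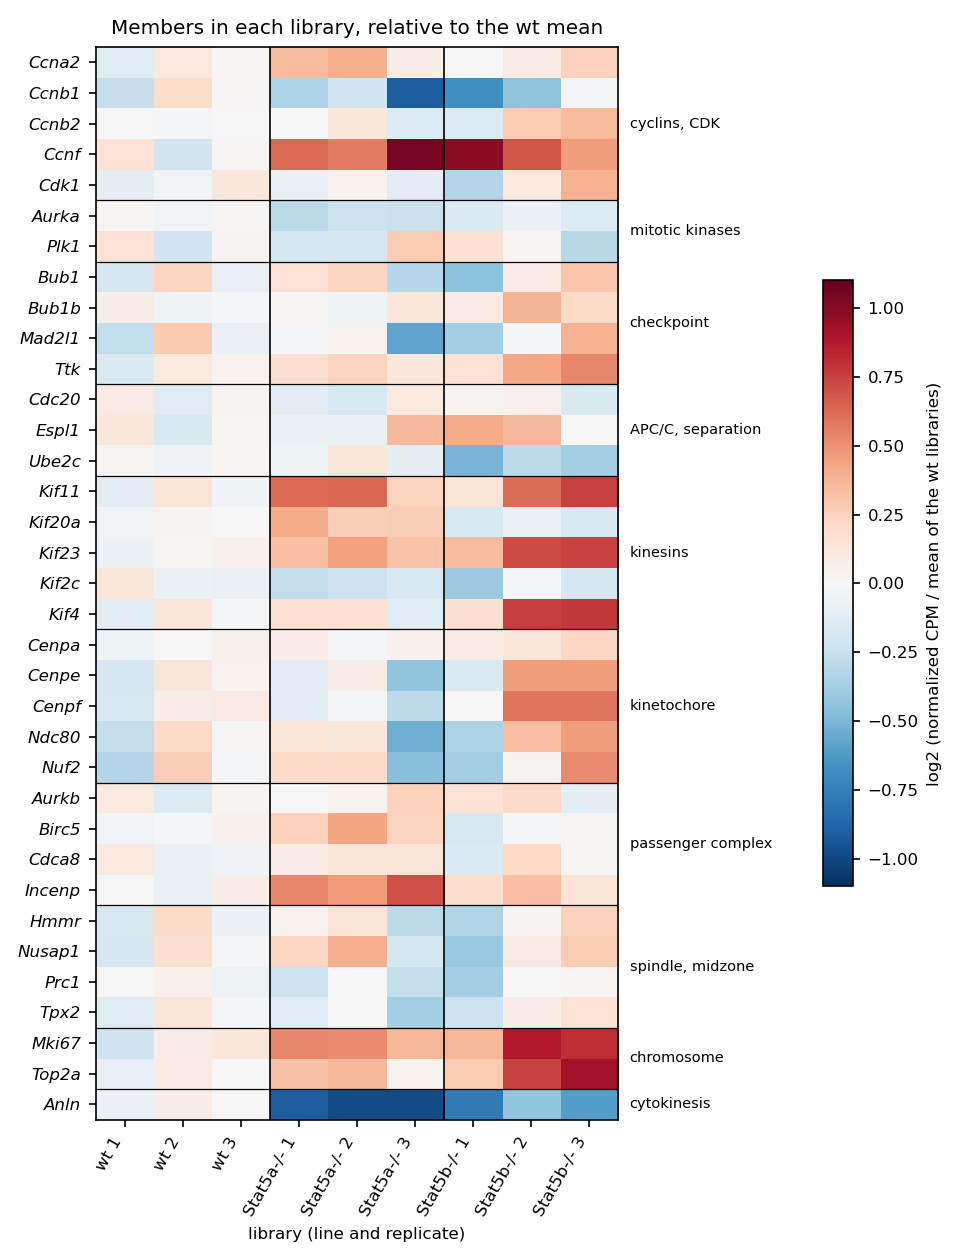
Level of each of the 35 members (rows, grouped by role) in each of the 9 libraries (columns), as the log2 of its normalized CPM over the mean of the wt libraries. Ccnf, Kif23 and Mki67 are red in all 6 knockout libraries and Anln is blue in all 6, and Stat5b-/- replicate 1 is paler or bluer than the other Stat5b-/- libraries in many rows.

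Altogether 14 of the 35 members were called in at least 1 comparison and 21 in none, where 61.5% of all tested genes were called in at least 1. Mki67, Kif23, Ccnf and Kif11 were higher in both knockout lines (4 of 35, beside 11.6% of all genes), and Anln was lower in both (1 of 35, beside 10.7%). Cenpf, Top2a and Kif4 were higher in Stat5b-/- than in both other lines (3 of 35, beside 10.4% of all genes), and Ttk was higher in Stat5b-/- than in wt. Ube2c was lower in Stat5b-/- than in both other lines (1 of 35, beside 9.15%). Birc5, Kif20a and Incenp were higher in Stat5a-/- than in both other lines (3 of 35, beside 8.17%), and Aurka was lower in Stat5a-/- than in wt. For the 25 members not called in Stat5b-/- against wt, the 26 in Stat5a-/- against wt and the 27 between the knockout lines, each 95% interval lay within a 2-fold change in either direction.

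**Figure D2:**
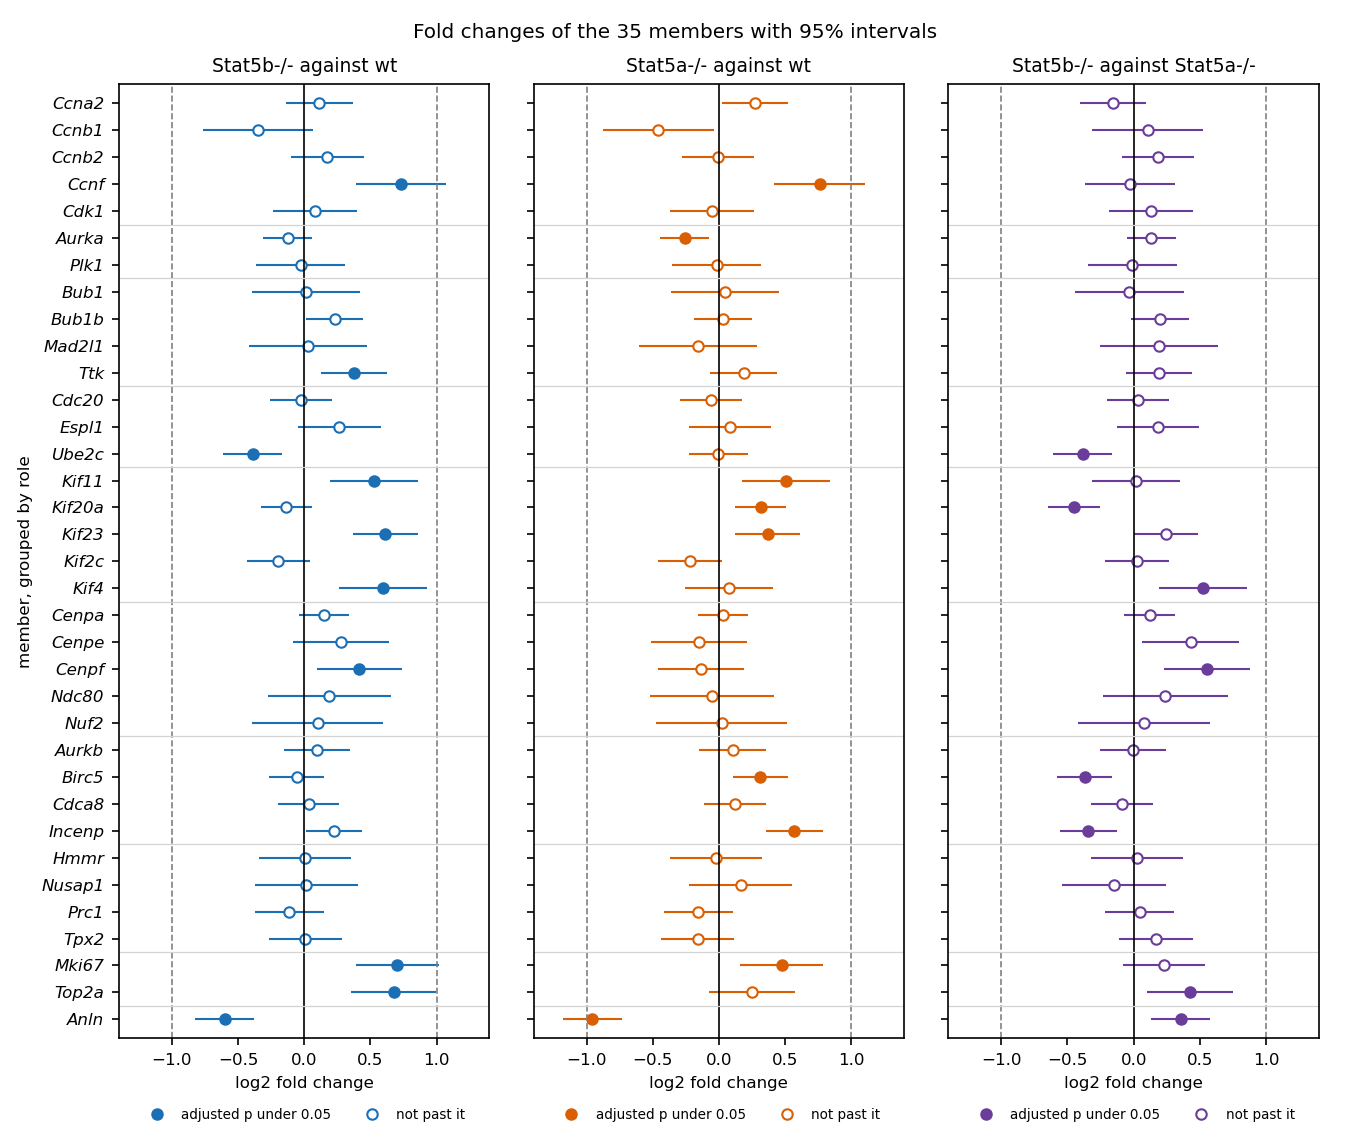
Log2 fold change of each member (points) with its 95% interval (lines) in the 3 comparisons, with filled points for an adjusted p under 0.05 and dashed lines at a 2-fold change. The points lie between -0.96 for Anln in Stat5a-/- and 0.76 for Ccnf in Stat5a-/-, and most lie close to 0.

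The promoters of the members share features that the list did not use. RefSeq windows of 300 bases (250 before to 50 after the start site, GRCm38.p6) were found for 30 of the 35 members, in 31 windows of 32851. The cell cycle genes homology region (CHR, TTTGAA or TTCGAA on either strand), the element that the DREAM complex binds, was in 25 of the 31 member windows, or 80.6%, and in 19.2% of all windows. A CCAAT box, the site of the factor NF-Y, was in 24 of 31 (77.4%) on either strand, where 37.4% of all windows held one, and 16 member windows (51.6%, against 11.7%) held 2 or more. Both elements stood together in 22 member windows, or 71.0%, and in 7.52% of all. The E2F letters TTTCCCGC or TTTGGCGC were in none of the member windows and in 1.56% of all windows. The palindrome TTCNNNGAA, to which STAT5 dimers bind, was likewise in none of the 31 member windows, beside 8.30% of all windows, which says only that these letters are not in these 300 bases. These matches are a description of letters and no evidence of binding.

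Windows of 6 members are printed from 250 bases before to 30 bases after the start site, 5′ to 3′ on the strand of the gene, with complete CHR and CCAAT letters of either strand in capitals. They stand for the patterns seen here, with Mki67 and Ccnf higher in both knockout lines, Anln lower in both, Top2a higher and Ube2c lower in Stat5b-/-, and Ccnb2 as the mitotic cyclin with the most RNA per kb and no call. The Ube2c window is at chr2:164769679-164769958 (plus strand), the others (minus strand) are at chr7:135716350-135716629 for Mki67, chr17:24251380-24251659 for Ccnf, chr9:22389177-22389456 for Anln, chr11:99024160-99024439 for Top2a and chr9:70421525-70421804 for Ccnb2.
Mki67: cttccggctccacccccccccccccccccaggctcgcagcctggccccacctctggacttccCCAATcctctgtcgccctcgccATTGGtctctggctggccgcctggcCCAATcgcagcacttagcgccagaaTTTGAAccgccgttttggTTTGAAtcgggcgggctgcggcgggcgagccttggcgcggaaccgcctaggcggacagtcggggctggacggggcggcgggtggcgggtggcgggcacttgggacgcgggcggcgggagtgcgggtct
Ccnf: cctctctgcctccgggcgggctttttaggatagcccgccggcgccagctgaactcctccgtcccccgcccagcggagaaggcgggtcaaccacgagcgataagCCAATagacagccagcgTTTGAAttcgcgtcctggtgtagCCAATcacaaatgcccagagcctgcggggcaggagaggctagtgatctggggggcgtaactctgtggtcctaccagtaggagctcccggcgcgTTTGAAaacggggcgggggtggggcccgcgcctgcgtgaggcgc
Anln: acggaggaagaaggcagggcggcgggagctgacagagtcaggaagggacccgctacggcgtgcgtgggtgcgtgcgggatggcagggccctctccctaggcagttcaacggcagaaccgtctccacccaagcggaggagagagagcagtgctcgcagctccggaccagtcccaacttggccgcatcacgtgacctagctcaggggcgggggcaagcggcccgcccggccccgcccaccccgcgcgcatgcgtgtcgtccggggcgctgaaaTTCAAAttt
Top2a: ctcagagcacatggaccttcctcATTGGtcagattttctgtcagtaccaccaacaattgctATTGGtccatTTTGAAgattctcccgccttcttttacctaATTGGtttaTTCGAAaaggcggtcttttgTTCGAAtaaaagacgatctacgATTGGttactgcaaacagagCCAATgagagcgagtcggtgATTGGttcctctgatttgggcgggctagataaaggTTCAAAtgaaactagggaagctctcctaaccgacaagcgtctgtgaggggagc
Ube2c: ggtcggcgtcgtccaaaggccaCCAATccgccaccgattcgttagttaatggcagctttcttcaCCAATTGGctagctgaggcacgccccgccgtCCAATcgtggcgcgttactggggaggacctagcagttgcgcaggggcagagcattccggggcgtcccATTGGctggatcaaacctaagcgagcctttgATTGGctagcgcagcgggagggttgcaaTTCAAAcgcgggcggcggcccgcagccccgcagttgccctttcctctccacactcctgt
Ccnb2: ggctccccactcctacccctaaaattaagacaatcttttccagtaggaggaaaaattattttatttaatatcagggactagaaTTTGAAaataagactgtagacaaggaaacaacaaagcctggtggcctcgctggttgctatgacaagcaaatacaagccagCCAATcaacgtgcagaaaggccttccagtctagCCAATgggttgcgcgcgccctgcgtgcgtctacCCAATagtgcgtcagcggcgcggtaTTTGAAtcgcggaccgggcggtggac
Ube2c held 6 CCAAT matches, a pair of them overlapping on opposite strands, and 1 CHR at -29 from the start site, and Top2a held 6 CCAAT boxes and 4 CHR matches. In Ccnb2 the CCAAT boxes began at -87, -54 and -21, and its CHR matches began at -167 and at 5 bases into the transcript. Anln had no CCAAT box, and its CHR matches began at 22 and 29 bases after the start, the second of which runs past the printed stretch.

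Among the 4 cyclins and their kinase, Ccnf was called in both knockout lines, and the other 4 passed the test in no comparison. Ccnf (ENSMUSG00000072082.6, chromosome 17 from 24223232 to 24251409 of GRCm38) encodes cyclin F, an F-box protein that marks proteins for degradation and does not activate a Cdk. Its normalized CPM was 105, 81.6 and 94.8 in the wt libraries, 144, 139 and 193 in Stat5a-/- and 186, 152 and 129 in Stat5b-/-. All 6 knockout libraries lay above all wt libraries. Relative to wt, the log2 fold changes were 0.76 in Stat5a-/- (SE 0.16, edgeR adjusted p = 0.00196) and 0.73 in Stat5b-/- (SE 0.16, edgeR adjusted p = 0.00206), and the knockout lines differed by -0.03 (95% interval -0.37 to 0.31). Both calls were made at the same threshold in each of 20 alternatives of processing or left-out libraries. Cdk1, the kinase itself, had 209 ± 16.1 normalized CPM in wt, 202 ± 11.7 in Stat5a-/- and 221 ± 52.5 in the Stat5b-/- libraries and was not called. Ccnb1 (cyclin B1) had 119, 162 and 142 in wt, 112, 121 and 75.4 in Stat5a-/- and 88.3, 104 and 139.9 in the Stat5b-/- libraries, with overlapping groups and log2 fold changes of -0.46 (95% interval -0.87 to -0.04, edgeR adjusted p = 0.0841) and -0.35 (-0.77 to 0.07, edgeR adjusted p = 0.157). With an offset for GC content, chosen after seeing the data, Ccnb1 was called in both knockout lines and Ccna2 in Stat5a-/-.

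Of the mitotic kinases, Aurka was lower in Stat5a-/- than in wt. Aurka (ENSMUSG00000027496.15, chromosome 2 from 172356190 to 172370535) encodes Aurora A, which matures centrosomes and organizes the spindle poles. Its levels were 157, 152 and 157 normalized CPM in wt, 127, 132 and 131 in Stat5a-/- and 139, 148 and 140.0 in the Stat5b-/- libraries, so the 3 lines did not overlap. Its log2 fold changes were -0.26 in Stat5a-/- against wt (SE 0.08, edgeR adjusted p = 0.0285) and -0.13 in Stat5b-/- against wt (SE 0.08, edgeR adjusted p = 0.246). The call was lost without any 1 of the 3 wt libraries or Stat5a-/- replicates 1 or 2, with adjusted p between 0.0563 and 0.0976, with no filter on low counts (0.105) and with the replicate block (0.0839). Plk1, the Polo kinase that acts from mitotic entry to division, had 233 ± 29.1, 230.4 ± 45.2 and 229 ± 37.4 normalized CPM in wt, Stat5a-/- and Stat5b-/- libraries and was not called.

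In the spindle checkpoint, Ttk was higher in Stat5b-/- and the other 3 members were not called. Ttk (ENSMUSG00000038379.15, chromosome 9 from 83834689 to 83872389) encodes Mps1, the kinase that starts checkpoint signalling at unattached kinetochores. It had 52.6, 63.5 and 60.6 normalized CPM in wt, 67.0, 70.0 and 64.1 in Stat5a-/- and 65.8, 78.9 and 84.7 in the Stat5b-/- libraries. All libraries of both knockout lines lay above the wt libraries, and the knockout lines overlapped. In log2 terms the differences from wt were 0.38 in Stat5b-/- (SE 0.12, edgeR adjusted p = 0.017) and 0.19 in Stat5a-/- (SE 0.12, edgeR adjusted p = 0.236), and the difference of 0.19 between the knockout lines had an edgeR adjusted p of 0.228. The call in Stat5b-/- was lost without wt replicate 1 or Stat5b-/- replicates 2 or 3, with adjusted p between 0.0564 and 0.0747. Bub1b, which encodes the checkpoint protein BubR1, had 213, 197 and 201 in wt and 217, 265 and 236 normalized CPM in Stat5b-/- libraries, which did not overlap, with a log2 fold change of 0.23 (95% interval 0.01 to 0.45, edgeR adjusted p = 0.0762). Bub1, a kinase, and Mad2l1, the inhibitor of the APC/C activator Cdc20, differed by log2 fold changes of at most 0.19 in any comparison.

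The APC/C enzyme Ube2c was lower in Stat5b-/- than in both other lines. Ube2c (ENSMUSG00000001403.13, chromosome 2 from 164769898 to 164778822) had 859.6, 825 and 864 normalized CPM in wt, 821, 931 and 790.5 in Stat5a-/- and 595, 696 and 654 in the Stat5b-/- libraries. Each Stat5b-/- library was below every library of the other lines, which overlapped each other. In Stat5b-/- the log2 fold changes were -0.39 against wt (SE 0.10, edgeR adjusted p = 0.00706) and -0.39 against Stat5a-/- (SE 0.10, edgeR adjusted p = 0.0109). The call against wt was made in each of the 20 alternatives. The call against Stat5a-/- was lost with a GC offset (edgeR adjusted p = 0.0608), with that offset and the replicate block (0.0827) and with library totals as the only scaling (0.0568). Of its exon bases, 22.8% overlap Tnnc2 on the opposite strand. The counting used no strand, and by its default reads that overlap both genes are left out. Cdc20, the activator of the APC/C, and Espl1, the separase that cleaves cohesin at anaphase, were not called, with 185 ± 14.6, 178 ± 18.6 and 182 ± 14.5 normalized CPM for Cdc20 in wt, Stat5a-/- and Stat5b-/- libraries.

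**Figure D3:**
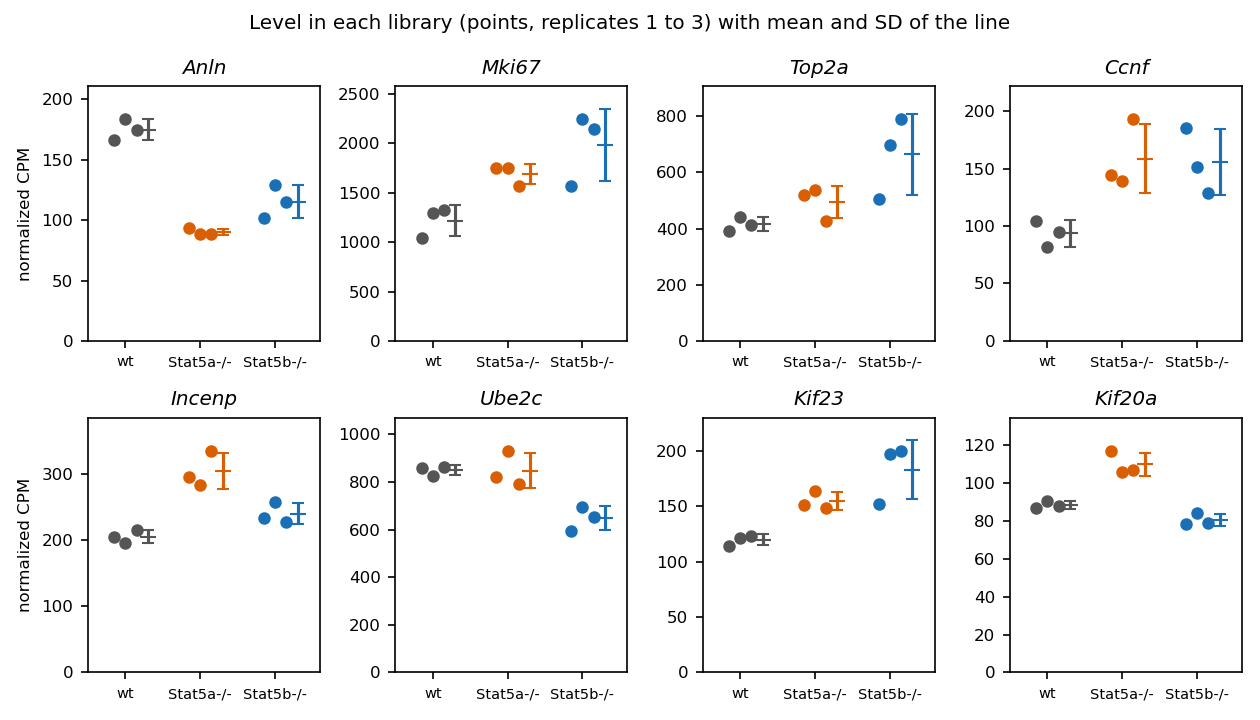
Normalized CPM of 8 members in each library (points, replicates 1 to 3 from left to right) with the mean and SD of the line beside them, on axes that start at 0. Anln is lower in both knockout lines, Ccnf, Kif23 and Mki67 are higher in both, Ube2c is lower in the Stat5b-/- line, and Incenp and Kif20a are highest in the Stat5a-/- line.

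Of the 5 kinesins, 3 were higher in each knockout line than in wt, where 24.2% of all tested genes were higher in Stat5b-/- and 19.8% in Stat5a-/-. Kif11, Kif23 and Kif4 were higher in Stat5b-/-, and Kif11, Kif23 and Kif20a were higher in Stat5a-/-. Kif23 (ENSMUSG00000032254.10, chromosome 9 from 61915905 to 61946774) encodes the motor of centralspindlin, which bundles midzone microtubules. It had 114, 121 and 123 normalized CPM in wt, 151, 164 and 149 in Stat5a-/- and 152, 197 and 199.9 in the Stat5b-/- libraries. Both knockout lines lay above wt and overlapped each other. Its log2 fold changes against wt were 0.61 in Stat5b-/- (SE 0.11, edgeR adjusted p = 0.000651), called in each of the 20 alternatives, and 0.37 in Stat5a-/- (SE 0.11, edgeR adjusted p = 0.0215). The call in Stat5a-/- was lost with library totals as the only scaling (edgeR adjusted p = 0.154) and without any 1 of the wt libraries or Stat5a-/- replicates 1 or 2, with adjusted p between 0.0508 and 0.0848.

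Kif11 (ENSMUSG00000012443.3, chromosome 19 from 37376403 to 37421859) encodes the motor that pushes the spindle poles apart. Its levels were 172, 208 and 180.4 normalized CPM in wt, 287, 289 and 221 in Stat5a-/- and 208, 285 and 314 in the Stat5b-/- libraries. The knockout libraries lay above wt, Stat5b-/- replicate 1 only just. Relative to wt, the log2 fold changes were 0.53 in Stat5b-/- (SE 0.15, edgeR adjusted p = 0.0133) and 0.51 in Stat5a-/- (SE 0.15, edgeR adjusted p = 0.0199). Without wt replicates 1 or 3 both calls were lost, with adjusted p of 0.0520 and 0.0523 in Stat5b-/-, and in Stat5a-/- also without its own replicates 1 or 2, with adjusted p between 0.0684 and 0.0778, and with library totals as the only scaling (edgeR adjusted p = 0.0892). Kif4 (ENSMUSG00000034311.3, chromosome X from 100625737 to 100727214), a chromosome-bound kinesin that limits the length of midzone microtubules, had 61.2, 73.3 and 66.2 in wt, 75.1, 75.0 and 61.1 in Stat5a-/- and 75.7, 113 and 115 normalized CPM in Stat5b-/- libraries. The Stat5b-/- libraries lay above all others, replicate 1 only just. Its log2 fold change in Stat5b-/- was 0.60 against wt (SE 0.15, edgeR adjusted p = 0.00626), called in each of the 20 alternatives, and 0.52 against Stat5a-/- (SE 0.15, edgeR adjusted p = 0.0191), which was lost without Stat5a-/- replicate 3 or Stat5b-/- replicates 2 or 3, with adjusted p between 0.0513 and 0.0802. The exons of Kif4 share 15.1% of their bases with Pdzd11 on the opposite strand.

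Kif20a (ENSMUSG00000003779.15), a kinesin that carries the passenger complex to the midzone, had its highest level in Stat5a-/-. It had 86.6, 90.5 and 88.1 normalized CPM in wt, 117, 106 and 107 in Stat5a-/- and 78.5, 84.0 and 78.9 in the Stat5b-/- libraries, and the 3 lines did not overlap. On the log2 scale the differences were 0.31 in Stat5a-/- against wt (SE 0.09, edgeR adjusted p = 0.0142), -0.45 in Stat5b-/- against Stat5a-/- (SE 0.09, edgeR adjusted p = 0.00188) and -0.14 in Stat5b-/- against wt (SE 0.09, edgeR adjusted p = 0.237). The difference between the knockout lines was called in each of the 20 alternatives, as it was for no other member. The call against wt was lost without wt replicate 3 (edgeR adjusted p = 0.0602) or Stat5a-/- replicate 1 (0.0987), with no filter on low counts (0.0886) and with library totals only (0.162). Kif20a shares 33.2% of its exon bases with Cdc23 on the opposite strand, a subunit gene of the APC/C which was itself lower in the Stat5b-/- line, with a log2 fold change against Stat5a-/- of -0.56 (SE 0.09, edgeR adjusted p = 0.000356). Kif2c, a kinesin that depolymerizes microtubules, was not called, and its Stat5a-/- libraries of 80.6, 82.2 and 86.3 normalized CPM lay below the wt libraries of 106, 92.5 and 91.8.

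At the centromere and kinetochore, Cenpf was higher in Stat5b-/- than in both other lines and 4 members were not called. Cenpf (ENSMUSG00000026605.14, chromosome 1 from 189640606 to 189688086), a large protein of the outer kinetochore, had 70.7, 83.2 and 85.2 normalized CPM in wt, 73.0, 79.1 and 65.3 in Stat5a-/- and 80.0, 119.6 and 119.7 in the Stat5b-/- libraries. Replicate 1 of Stat5b-/- lay within the wt range and the other 2 replicates lay well above it. In Stat5b-/- the log2 fold changes were 0.42 against wt (SE 0.15, edgeR adjusted p = 0.0352) and 0.55 against Stat5a-/- (SE 0.15, edgeR adjusted p = 0.0126). The call against wt was lost without any 1 of the wt libraries, Stat5a-/- replicate 1 or Stat5b-/- replicates 2 or 3 (adjusted p between 0.0522 and 0.143), with library totals only (0.0570) and with only the lines compared in the fit (0.0523). The call between the knockout lines was lost without Stat5b-/- replicate 2 (0.0579). Cenpe, a kinetochore motor, had 85.6, 106 and 100.1 in wt, 89.3, 101 and 72.1 in Stat5a-/- and 87.2, 134 and 133 normalized CPM in Stat5b-/- libraries, and its log2 fold change of 0.43 between the knockout lines (95% interval 0.06 to 0.79) had an edgeR adjusted p of 0.0664. Cenpa, the histone of centromeric nucleosomes, had 267 ± 8.89, 273 ± 8.70 and 296 ± 14.5 normalized CPM in wt, Stat5a-/- and Stat5b-/- libraries. Ndc80 and Nuf2, which form the microtubule-binding arm of the kinetochore, differed by at most 0.24 on the log2 scale, with intervals that spanned -0.52 to 0.71.

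Of the 4 members of the chromosomal passenger complex, 2 were higher in Stat5a-/- than in both other lines, as were 8.17% of all tested genes. Incenp (ENSMUSG00000024660.8, chromosome 19 from 9872297 to 9899533) encodes the scaffold that binds and activates Aurora B. On chromosome 19, 47.6% of the tested genes were higher in Stat5a-/- than in wt. Incenp had 204, 195 and 216 normalized CPM in wt, 295, 283 and 335 in Stat5a-/- and 234, 257 and 228 in the Stat5b-/- libraries, and the 3 lines did not overlap. Log2 fold changes were 0.57 in Stat5a-/- against wt (SE 0.10, edgeR adjusted p = 0.000532), called in each of the 20 alternatives, and -0.34 in Stat5b-/- against Stat5a-/- (SE 0.10, edgeR adjusted p = 0.0174). The latter call was lost without Stat5a-/- replicate 3 (0.0786) or Stat5b-/- replicate 3 (0.0530), with the GC offset (0.0512), with that offset and the replicate block (0.0848), with library totals only (0.0832) and with 2 libraries a line (0.0816). In Stat5b-/- against wt the change was 0.23 (95% interval 0.01 to 0.44, edgeR adjusted p = 0.0806). Birc5 (ENSMUSG00000017716.15, chromosome 11 from 117849251 to 117855743) encodes survivin, the subunit that recruits the complex to centromeres. Its levels were 118, 119.6 and 125 normalized CPM in wt, 144, 163 and 143 in Stat5a-/- and 107, 119.5 and 122 in the Stat5b-/- libraries, with the Stat5a-/- libraries above the rest. Its log2 fold changes were 0.31 in Stat5a-/- against wt (SE 0.10, edgeR adjusted p = 0.0208) and -0.37 in Stat5b-/- against Stat5a-/- (SE 0.10, edgeR adjusted p = 0.00979). The first was lost without any 1 of the wt libraries or Stat5a-/- replicate 2 (adjusted p between 0.0548 and 0.110), with no low-count filter (0.0817), with the replicate block (0.0507) and with library totals only (0.198), and the second with library totals only (0.0659). Aurkb, the kinase of the complex, and Cdca8, the subunit borealin, were not called, at 279 ± 25.5, 299 ± 29.2 and 298 ± 32.7 normalized CPM for Aurkb in wt, Stat5a-/- and Stat5b-/- libraries.

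None of the spindle and midzone microtubule proteins was called. Prc1 (ENSMUSG00000038943.16), which crosslinks the antiparallel microtubules of the midzone, had 80.2, 82.5 and 77.1 normalized CPM in wt, 67.9, 80.4 and 66.8 in Stat5a-/- and 61.4, 79.4 and 81.1 in the Stat5b-/- libraries, with overlapping groups. Its log2 fold change was -0.11 in Stat5b-/- (95% interval -0.37 to 0.15, edgeR adjusted p = 0.478) and -0.16 in Stat5a-/- (-0.42 to 0.11, edgeR adjusted p = 0.348). Tpx2, which brings Aurora A to the spindle, Nusap1 and Hmmr, both microtubule-binding proteins of the spindle, lay between -0.16 and 0.17 on the log2 scale in each comparison.

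Both members that act on chromosome structure were higher in Stat5b-/- than in wt, where 24.2% of all tested genes were. Mki67 (ENSMUSG00000031004.8, chromosome 7 from 135689784 to 135716361) encodes Ki-67, the coat of mitotic chromosomes and the usual histological marker of cycling cells. It had 1037, 1292 and 1324 normalized CPM in wt, 1754, 1746 and 1569 in Stat5a-/- and 1566, 2243 and 2141 in the Stat5b-/- libraries. All knockout libraries lay above all wt libraries, and the knockout lines overlapped. In log2 terms the differences from wt were 0.70 in Stat5b-/- (SE 0.14, edgeR adjusted p = 0.00141), called in each of the 20 alternatives, and 0.47 in Stat5a-/- (SE 0.14, edgeR adjusted p = 0.0204). The call in Stat5a-/- was lost without wt replicate 1 or Stat5a-/- replicates 1 or 2 (adjusted p between 0.0626 and 0.0840) and with library totals only (0.0966). For established Stat5b-/- lines the paper reported fewer cells in S phase and slower growth, and the RNA levels here do not measure growth. Top2a (ENSMUSG00000020914.17, chromosome 11 from 98992943 to 99024189) encodes topoisomerase II alpha, which untangles sister DNA strands. Its levels were 391, 442 and 414 normalized CPM in wt, 520.4, 536 and 428 in Stat5a-/- and 505, 698 and 789 in the Stat5b-/- libraries. The Stat5b-/- libraries were above wt, while replicate 1 overlapped Stat5a-/-. In Stat5b-/- the log2 fold changes were 0.68 against wt (SE 0.15, edgeR adjusted p = 0.00243), called in each of the 20 alternatives, and 0.42 against Stat5a-/- (SE 0.15, edgeR adjusted p = 0.0431). The latter was lost without any 1 of 7 libraries, namely wt replicates 1 or 3, any Stat5a-/- replicate or Stat5b-/- replicates 2 or 3 (adjusted p between 0.0506 and 0.156), and with only the lines compared in the fit (0.0720), with the replicate block (0.0715) and with the GC offset and the block (0.0570).

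Anln had the largest change of the 35 members. Anln (ENSMUSG00000036777.8, chromosome 9 from 22332012 to 22389188) encodes anillin, the scaffold that links actin, myosin and septins in the contractile ring of cytokinesis. It had 166, 183 and 175 normalized CPM in wt, 93.4, 88.5 and 88.5 in Stat5a-/- and 102, 129 and 115 in the Stat5b-/- libraries, and the 3 lines did not overlap. On the log2 scale the differences were -0.96 in Stat5a-/- against wt (SE 0.10, edgeR adjusted p = 8.17e-06) and -0.60 in Stat5b-/- against wt (SE 0.10, edgeR adjusted p = 0.000364), both called in each of the 20 alternatives. Between the knockout lines it was 0.36 (SE 0.10, edgeR adjusted p = 0.018), and this call was lost without Stat5a-/- replicate 2 or Stat5b-/- replicate 2 (adjusted p between 0.0621 and 0.0855), with the GC offset (0.117) and with that offset and the block (0.175). Anln thus fell in both knockout lines while Mki67, Kif23, Ccnf and Kif11 rose in both.

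The technical replicates of a line differed along GC content over all genes and in the members. The median coefficient of variation of a member over the 3 libraries of a line was 9.10% in wt, 10.5% in Stat5a-/- and 14.8% in Stat5b-/-. Across the 35 members, which share libraries and are not independent, the deviation of a library from the mean of its line had a correlation with the GC content of the transcripts of 0.82, -0.89 and 0.29 in wt replicates 1 to 3, -0.77, -0.77 and 0.83 in Stat5a-/- and 0.82, -0.03 and -0.84 in Stat5b-/-. Over the 13824 tested genes with a GC content the same correlations were 0.48, -0.50 and -0.06 in wt, -0.35, -0.32 and 0.54 in Stat5a-/- and 0.33, 0.16 and -0.46 in Stat5b-/-. Of the 12 members of lowest GC content (Bub1 at 40.6% to Ndc80 at 43.6%), 0 lay above the mean of their line in wt replicate 1, Stat5a-/- replicate 3 and Stat5b-/- replicate 1. In Stat5b-/- replicate 1 the median deviation of these 12 was -0.38 on the log2 scale, beside -0.03 for the 12 of highest GC content (Ccnb2 at 49.3% to Plk1 at 56.1%). The called members Anln, Top2a, Kif11, Cenpf and Ttk are among the 12 of lowest GC content. Aurka, Ccnf, Ube2c and Incenp, also called, are among the 12 of highest GC content. An offset for GC content, chosen after seeing the data, called 15 members in each knockout line against wt, 12 higher and 3 lower in Stat5b-/- and 10 higher and 5 lower in Stat5a-/-, with all members called before among them, and raised the shares over all genes to 29.2% higher and 26.0% lower in Stat5b-/- and 22.3% and 22.4% in Stat5a-/-. The members gained were Bub1b, Ccnb1, Cenpe, Espl1 and Incenp in Stat5b-/- and Ccna2, Ccnb1, Cdc20, Kif2c, Top2a and Ttk in Stat5a-/-. Ccnb1 was then lower in both knockout lines, by log2 fold changes of -0.34 (SE 0.12, edgeR adjusted p = 0.0245) in Stat5b-/- and -0.35 (SE 0.12, edgeR adjusted p = 0.0257) in Stat5a-/-. Between the knockout lines 6 members were higher and 3 lower with this offset, where 24.0% of all genes were higher and 20.1% lower. Of the 8 earlier calls 5 were among these 9, and those of Anln, Incenp and Ube2c were lost.

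**Figure D4:**
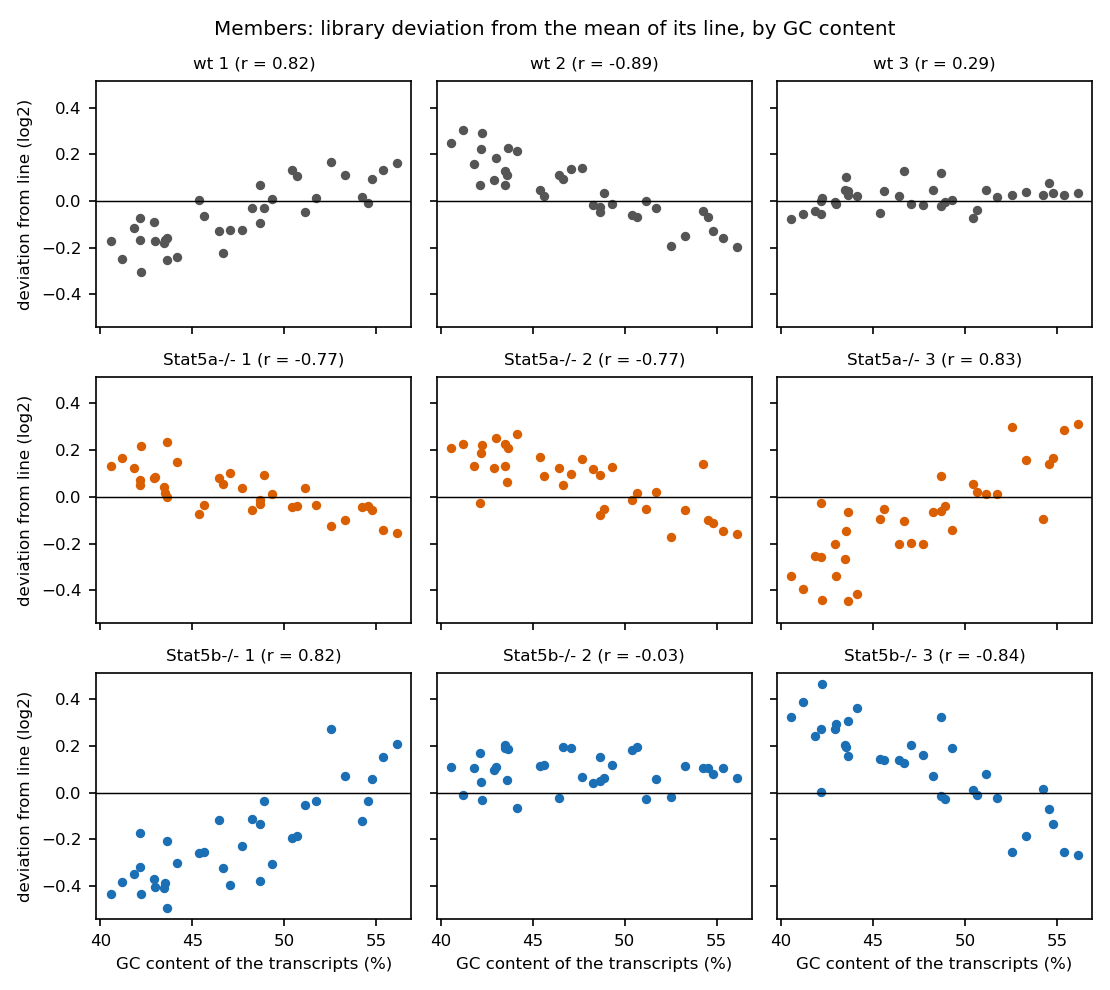
Deviation of each library from the mean of its line on the log2 scale (y axis) for the 35 members, against the GC content of their transcripts in percent (x axis), in 1 panel per library. Wt 1, Stat5a-/- 3 and Stat5b-/- 1 rise with GC content, wt 2, Stat5a-/- 1 and 2 and Stat5b-/- 3 fall, and wt 3 and Stat5b-/- 2 are close to level.

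Of the 7 members higher in Stat5a-/-, 4 lie on chromosomes 17, 18 and 19. Genes on chromosomes 17, 18 and 19 had a median log2 fold change of 0.47 in Stat5a-/- against wt, where 53.1% of the 1472 tested genes were higher, beside a median of -0.03 and 15.8% over the other chromosomes. The members there are Ccnf and Ndc80 on 17, Kif20a on 18, and Kif11 and Incenp on 19, and 4 of these 5 were higher in Stat5a-/-, beside 3 of the 30 members elsewhere. In Stat5b-/- against wt 2 of the 5, Ccnf and Kif11, were higher, and the median of all genes there was 0.06. Between the knockout lines the median there was -0.43 and 7.47% of genes were higher, beside 0.06 and 17.4% elsewhere, and Kif20a and Incenp are 2 of the 4 members lower in Stat5b-/- than in Stat5a-/-. Without these 5 members, 3 higher and 2 lower members remained in Stat5a-/- against wt, 6 higher and 2 lower in Stat5b-/- against wt, and 4 higher and 2 lower between the knockout lines. The part of the chromosomes in these values was not tested.

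Another 6 lists held genes outside the 35, 5 of mitosis and its control and 1 of S phase, counted in the same test and with TMM scaling only. Their shares stand beside those over all genes, 24.2% higher and 22.0% lower in Stat5b-/- against wt and 19.8% higher and 16.3% lower in Stat5a-/- against wt. Of 30 further spindle, centrosome and cytokinesis genes, 11 were higher and 1 lower in Stat5b-/- against wt (36.7% and 3.33%, median log2 fold change 0.26) and 5 higher and 2 lower in Stat5a-/- (16.7% and 6.67%, median 0.09). Among them Gtse1, a microtubule-binding protein of G2, had 142, 128 and 138 normalized CPM in wt, 209.6, 191 and 257 in Stat5a-/- and 251, 238 and 179.8 in the Stat5b-/- libraries, with log2 fold changes of 0.71 in Stat5b-/- (SE 0.14, edgeR adjusted p = 0.000991) and 0.69 in Stat5a-/- (SE 0.14, edgeR adjusted p = 0.00163). Of 35 kinetochore and centromere genes, 6 were higher and 2 lower in Stat5b-/- (17.1% and 5.71%) and 4 higher and 5 lower in Stat5a-/- (11.4% and 14.3%). Hjurp, the chaperone that loads Cenpa, had 328, 322 and 331 in wt, 354, 339 and 381 in Stat5a-/- and 608, 591 and 538 normalized CPM in Stat5b-/- libraries, with a log2 fold change of 0.82 in Stat5b-/- against wt (SE 0.09, edgeR adjusted p = 1.02e-05), while Cenpa itself was not called. Cenph, an inner kinetochore subunit, fell in both knockout lines, by -1.02 in Stat5b-/- (SE 0.21, edgeR adjusted p = 0.00132) and -0.86 in Stat5a-/- (SE 0.21, edgeR adjusted p = 0.00514).

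Of 18 further APC/C and anaphase genes, 1 was higher and 5 were lower in Stat5b-/- against wt (5.56% and 27.8%, the latter near the 22.0% over all genes), and 3 were higher and 1 lower in Stat5a-/- (16.7% and 5.56%). Pttg1, the securin that holds the separase Espl1 inactive, had 79.4, 83.0 and 81.5 normalized CPM in wt, 142, 172 and 138 in Stat5a-/- and 56.7, 61.5 and 60.3 in the Stat5b-/- libraries. It was higher in Stat5a-/- than in wt, with a log2 fold change of 0.89 (SE 0.10, edgeR adjusted p = 1.48e-05), and lower in Stat5b-/-, with one of -0.45 (SE 0.10, edgeR adjusted p = 0.00312), whereas Espl1 was called in neither. Of 15 condensin and cohesin genes, 3 (20.0%) were higher and 0 lower in Stat5b-/- and 1 (6.67%) was higher and 0 lower in Stat5a-/-, Ncapd2 of condensin rising in Stat5b-/- by 0.59 (SE 0.11, edgeR adjusted p = 0.000748).

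Of the factors known to act on promoters of this kind, Foxm1 was higher in Stat5b-/- and Mybl2 was not called. Foxm1 had 307, 267 and 304 normalized CPM in wt, 335, 307 and 438 in Stat5a-/- and 523, 452 and 320.3 in the Stat5b-/- libraries, and was higher in Stat5b-/- than in wt by 0.56 on the log2 scale (SE 0.17, edgeR adjusted p = 0.0165), while the log2 fold change of 0.30 in Stat5a-/- was not called (edgeR adjusted p = 0.201). Mybl2, which encodes B-MYB, had means of 63.9, 82.2 and 80.5 normalized CPM in wt, Stat5a-/- and Stat5b-/- libraries and was not called (edgeR adjusted p = 0.0650 in Stat5a-/- and 0.0730 in Stat5b-/-). Of 29 genes of G2/M entry control and its transcription factors, 7 were higher and 7 lower in Stat5b-/- (24.1% each) and 4 higher and 7 lower in Stat5a-/- (13.8% and 24.1%). Of 46 S phase genes, 6 were higher and 12 lower in Stat5b-/- (13% and 26.1%, median log2 fold change -0.13) and 4 higher and 15 lower in Stat5a-/- (8.70% and 32.6%, median -0.23). The lower share was near the 22.0% of all genes in Stat5b-/- and stood beside 16.3% in Stat5a-/-. Myc, an activator of growth and cell cycle genes, had means of 1123, 766 and 294 normalized CPM in wt, Stat5a-/- and Stat5b-/- libraries, with log2 fold changes of -0.55 in Stat5a-/- (SE 0.12, edgeR adjusted p = 0.00287) and -1.93 in Stat5b-/- (SE 0.13, edgeR adjusted p = 5.29e-08). No member fell past a 2-fold change in either line.

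**Figure D5:**
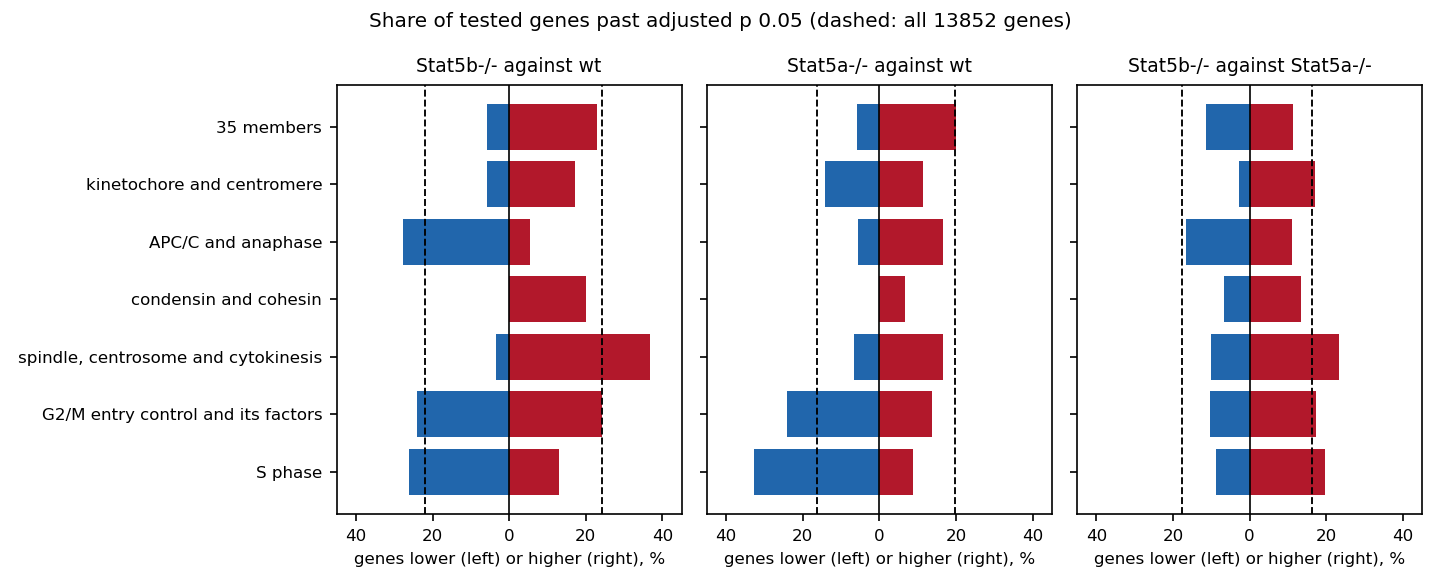
Share of the tested genes of the 35 members and of 6 further lists that were higher (red, right) or lower (blue, left) in percent in the 3 comparisons, with dashed lines at the shares over all 13852 tested genes. The members' bars reach 22.9% higher and 5.71% lower in Stat5b-/- against wt, while the S phase bar is the longest to the left in Stat5a-/- against wt, at 32.6%.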

How the data were processed

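RNA-seq of 3 BCR/ABLp185+ cell lines (wt, Stat5a-/-, Stat5b-/-; 1 line a genotype, 3 technical replicates, 9 libraries) was analysed, and p-values measure only the spread between these libraries. The authors trimmed 50 bp single-end reads with Trimmomatic, mapped them with STAR to GENCODE M13 (GRCm38) and deposited raw counts per union gene model from featureCounts, whose recorded command sets no strand. By its default, reads overlapping more than 1 gene or mapping to several places are left out. The deposited tables hold 50686 genes, of which 50376 have a symbol in GENCODE M21. Library totals lay between 11948136 and 19016396 counts, so that counting error of the members (at least 307 reads) is small. Samples were grouped by titles and genotype labels. The symbols of all 35 members were matched.

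Differences were tested in edgeR 4.0.16 (R 4.3.3) after TMM normalization of the counts (filterByExpr, glmQLFit and glmQLFTest on all 9 libraries, genotype as the only term, Benjamini-Hochberg over 13852 genes). A member was called at an adjusted p under 0.05, in the direction of its log2 fold change, and counted separately past an absolute log2 fold change of 1, the limits of the study. Standard errors were obtained by dividing the size of the log2 fold change by the root of its F statistic, and 95% intervals use the t distribution of the fit. Values in every library are given for members past both limits, of which there were none, filled up to 12 with those of smallest adjusted p, and for the member of each role with the largest change in Stat5b-/- against wt, 15 in all. Of other lists, at most 2 genes per comparison with the largest change, Foxm1, Mybl2, Myc and the deleted genes could be named. Values of Ccnb1, Bub1b, Cenpe and Kif2c in each library and of further members as means were added after they were seen. The members, lists and tests were chosen with earlier results of these data known.

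Alternatives were DESeq2 1.42.0, RLE or upper-quartile factors, library totals only, other filters on low counts, only the lines compared, the replicate block, an adjusted p under 0.01, members on chromosomes 17, 18 and 19 left out and each library left out in turn. Another 3 were chosen after seeing the data, namely a GC content offset (loess curves of span 0.5, fitted per library), the same together with the replicate block, and 2 libraries a line (wt replicate 1, Stat5a-/- replicate 3 and Stat5b-/- replicate 1 left out together). Of the steps, only the edgeR and DESeq2 fits of Stat5b-/- against wt were tried on simulated counts, which held no trend with GC content. Promoter windows came from RefSeq (GRCm38.p6). The human samples of the study were not analysed here.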

Additional observations from a re-analysis of the deposited data

How the results depend on the processing

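With DESeq2, RLE factors or a mean of at least 10 counts, the number of called members was the same as with edgeR and TMM in all 3 comparisons, and of the 27 calls 11 were made in each of the 20 alternatives, 7 in Stat5b-/- against wt, 3 in Stat5a-/- against wt and 1 between the knockout lines. In Stat5a-/- against wt, where 9 members were called, 15 were called with the GC offset, 3 at an adjusted p under 0.01 and 5 without the members on chromosomes 17, 18 and 19. Leaving out 1 library gave 4 to 10, with 4 without wt replicate 1, wt replicate 3 or Stat5a-/- replicate 1 and 5 without Stat5a-/- replicate 2. Between the knockout lines, where 8 were called, 2 were called at an adjusted p under 0.01, and leaving out 1 library gave 4 to 12, with 5 without Stat5a-/- replicate 3, 4 without Stat5b-/- replicate 2 and 5 without Stat5b-/- replicate 3. In Stat5b-/- against wt it gave 7 to 12. In Stat5a-/- against wt 1 member, Anln, passed 2-fold with upper-quartile factors, with library totals only and without Stat5a-/- replicate 1 (0 to 1 over the left-out libraries), and the median of the members was -0.11 with library totals only, where that of all genes was -0.13. Apart from what a setting itself removes, the cause was not tested.

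Deviations of same-numbered libraries from the means of their lines had a mean correlation of -0.09 over 9 pairs (-0.45 to 0.22). Over 18 other pairs it was 0.04. Deviations sum to 0 within a line, so the second mean largely follows from the first. These correlations therefore cannot decide whether same-numbered libraries belong together. With the replicate block 10, 7 and 7 members were called in Stat5b-/- against wt, Stat5a-/- against wt and between the knockout lines, with Aurka and Birc5 lost in the second and Top2a in the third, and with the GC offset and the block 12, 13 and 6. Over the 35 members and 3 comparisons, the log2 fold change turned its sign in at least 1 of the 20 alternatives for 40 of the 78 values not called and 0 of the 27 called. Of the 15 members given in every library by the rule, these were the following. In Stat5a-/- against wt, Kif4 was -0.066 with library totals only, and Ube2c was 0.035 with 2 libraries a line and -0.089 to 0.014 over the left-out libraries. Between the knockout lines, Ccnf was 0.082 with library totals only, 0.059 with the GC offset and 0.057 with offset and block (-0.19 to 0.14 over the left-out libraries), Kif11 was -0.13 and -0.13 with offset without and with the block (-0.11 to 0.17), and Prc1 was -0.029 and -0.031 (-0.024 to 0.16).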
